A study of Arabidopsis thaliana with 9 samples.

Results

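The endoplasmic reticulum (ER) body genes described here are 10 loci of Arabidopsis thaliana, taken by locus identifier from the 33557 loci of the expression tables. They encode the beta-glucosidases PYK10, BGLU21 and BGLU22, the jacalin-related lectins PBP1, JAL31, JAL33 and JAL34, the transcription factor NAI1, and the ER body proteins NAI2 and MEB1. All 10 were found in both tables. They were chosen by locus name with the FPKM values of all 3 groups and the differences between groups already known, so these differences are given as a description. The p-values come from a fit across all genes and show where each gene stands in that fit.

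The study sequenced polyadenylated RNA from whole seedlings to ask how plants respond when translation in mitochondria is impaired. The first group was Col-0 wild type given 25 µg/ml doxycycline, an antibiotic that blocks bacterial-type ribosomes, for 12 h. The second was the mrpl1-1 mutant in the Col-0 ecotype without the drug, and the third was untreated Col-0 wild type, called wild type below. Plants of all groups had grown for 14 days on solid half-strength Murashige and Skoog medium and then received the liquid form of that medium for 12 h in the light. Each group had 3 libraries, described by the submitters as biological replicates. The labels give no number of seedlings per library and do not name the lesion of mrpl1-1, which stands for 1 mutant line. Values are FPKM, a fragment count scaled by transcript length and library total, and the same wild-type libraries are the controls of both comparisons.

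ER bodies are spindle-shaped compartments of the ER found in plants of the cabbage order, abundant in roots and in the seedling epidermis. They store beta-glucosidases, enzymes that split glucose from defence compounds such as glucosinolates and coumarin glucosides. Tissue damage brings these enzymes together with their substrates and with lectins from the cytosol, and the enzymes then form large complexes with the lectins. NAI1, a basic helix-loop-helix transcription factor, is required for ER bodies to form and for expression of PYK10 and NAI2. NAI2 is needed to build the bodies, and MEB1 is a protein of their membrane.

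The reads that the FPKM values stand for were estimated from the steps between low values. The total that scaled each library lay between 3.10 and 8.58 M (mega) reads, so that 1 read in a transcript of 1 kb was worth 0.117 to 0.323 FPKM. At these totals 26.7 to 29.5% of low values fell within 0.08 of a whole read, against 13.8 to 16.2% at other totals, so the totals are estimates. PYK10 rested on about 5903 to 21559 reads per library, BGLU21 on 287 to 1340 and BGLU22 on 276 to 878. NAI1 had the thinnest support, with 29 to 187 reads. In a principal component analysis the first component, with 23.9% of the variance, was led by mrpl1-1 replicate 2, and the second, with 20.1%, by wild-type replicate 3. AT2G42710, a ribosomal protein L1 family gene taken here as the MRPL1 gene from knowledge of the study and not from the labels, had 19.6, 12.0 and 18.6 FPKM in mrpl1-1, against 19.4, 17.9 and 25.1 FPKM in wild type. Those groups overlapped, and without the lesion's position the transcript level does not check the genotype.

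BGLU21 (AT1G66270) and BGLU22 (AT1G66280) lie next to each other on the minus strand of chromosome 1, at 24699868 to 24703166 and 24706512 to 24709996, with 3345 nt between them. Coordinates are those of TAIR10.1, read from the RefSeq annotation. PYK10 (AT3G09260) stands alone on chromosome 3 at 2840477 to 2843781, minus strand. Each of the 3 genes has 13 exons and a coding sequence of 1575 nt. The coding sequences of BGLU21 and BGLU22 were identical at 93.3% of aligned bases, those of BGLU21 and PYK10 at 84.0%, and those of BGLU22 and PYK10 at 83.7%. Of all 50-nt windows of the BGLU21 transcript, 5.16% also occurred in BGLU22 and 0 in PYK10, and 0 of its 100-nt windows occurred in either. No source used here states how reads that match both neighbours were divided, so the FPKM values of BGLU21 and BGLU22 may share some reads. The 250 bases before the transcript start of the 3 enzyme genes and of NAI2 are shown because the neighbours and PYK10 differed in their values with doxycycline while NAI2 holds the sequence that basic helix-loop-helix factors are known to bind. They run 5′ to 3′ on the gene's own strand, from RefSeq's TAIR10.1 sequence, and capitals mark CANNTG or TATAAA on either strand.
BGLU21 chr1:24703167-24703416, minus strand: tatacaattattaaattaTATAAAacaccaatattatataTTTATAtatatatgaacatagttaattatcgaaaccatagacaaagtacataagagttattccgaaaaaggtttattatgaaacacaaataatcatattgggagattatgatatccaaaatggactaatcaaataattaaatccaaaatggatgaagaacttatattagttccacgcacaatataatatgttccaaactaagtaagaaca
BGLU22 chr1:24709997-24710246, minus strand: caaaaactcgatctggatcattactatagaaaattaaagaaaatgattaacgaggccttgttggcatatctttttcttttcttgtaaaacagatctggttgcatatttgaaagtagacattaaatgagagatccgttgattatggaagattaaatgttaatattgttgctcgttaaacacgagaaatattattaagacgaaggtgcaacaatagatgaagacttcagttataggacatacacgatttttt
PYK10 chr3:2843782-2844031, minus strand: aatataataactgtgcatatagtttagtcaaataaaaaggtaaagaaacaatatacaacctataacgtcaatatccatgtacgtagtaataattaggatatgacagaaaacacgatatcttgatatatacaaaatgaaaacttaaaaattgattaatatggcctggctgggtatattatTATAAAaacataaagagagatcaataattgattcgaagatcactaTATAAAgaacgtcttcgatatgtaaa
NAI2 chr3:5402654-5402903, minus strand: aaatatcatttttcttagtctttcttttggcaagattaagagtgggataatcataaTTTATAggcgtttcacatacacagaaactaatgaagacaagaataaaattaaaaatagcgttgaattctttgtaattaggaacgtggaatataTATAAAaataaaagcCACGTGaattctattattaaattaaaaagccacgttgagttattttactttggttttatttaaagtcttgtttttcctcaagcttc

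The upstream sequences of the 2 neighbours aligned over 198 nt with 69.7% identity, and those of BGLU21 and PYK10 over 211 nt with 60.7%. Counted from the transcript start, TATAAA began at positions -71 and -26 in PYK10 and at -232 and -210 in BGLU21, and BGLU22 had no match in this window. Over 27443 protein-coding genes, 47.3% held TATAAA in the same window, and 7 of the 10 ER body genes did. The E-box CANNTG was present in 55.3% of all these windows and in 4 of the 10, which were NAI1, NAI2, MEB1 and JAL33. Its palindromic form CACGTG, the G-box, stood in 6.49% of all windows and in 1 of the 10, NAI2, at position -86. Every G-box match is also an E-box match. TTGAC, the core of the W-box of WRKY factors, occurred in 44.9% of all windows and in 4 of the 10, namely PYK10, MEB1, JAL31 and JAL34. All 4 motifs were searched on both strands.

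The 4 lectin genes form a cluster on the plus strand of chromosome 3. PBP1 (AT3G16420, 5579290 to 5581032) is followed after 535 nt by JAL31 (AT3G16430, 5581568 to 5583258), and JAL33 (AT3G16450, 5588292 to 5590085) and JAL34 (AT3G16460, 5592491 to 5595912) lie further along. PBP1 and JAL31 shared 89.0% of their aligned coding bases and 84.3% of 217 aligned upstream bases. Of the 50-nt windows of the PBP1 transcript, 3.64% occurred in JAL31, and of its 100-nt windows 0.0741%. The FPKM values of PBP1 and JAL31 may therefore share some reads, as those of BGLU21 and BGLU22 may. Their upstream windows are shown for this likeness, with their longest shared run, of 27 nt, in capitals.
PBP1 chr3:5579040-5579289, plus strand: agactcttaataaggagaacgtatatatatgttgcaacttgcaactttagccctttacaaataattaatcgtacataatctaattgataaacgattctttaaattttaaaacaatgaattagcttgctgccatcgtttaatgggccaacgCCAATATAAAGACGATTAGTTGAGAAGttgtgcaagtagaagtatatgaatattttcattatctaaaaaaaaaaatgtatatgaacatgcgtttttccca
JAL31 chr3:5581318-5581567, plus strand: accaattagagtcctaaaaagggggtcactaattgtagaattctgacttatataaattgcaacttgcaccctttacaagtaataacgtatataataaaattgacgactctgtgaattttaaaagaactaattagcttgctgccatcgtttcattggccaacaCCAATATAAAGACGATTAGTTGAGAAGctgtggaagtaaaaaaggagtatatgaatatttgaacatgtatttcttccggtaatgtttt

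NAI1 (AT2G22770) spans 9684562 to 9686613 of chromosome 2 (plus strand), NAI2 (AT3G15950) spans 5397541 to 5402653 of chromosome 3 (minus strand), and MEB1 (AT4G27860) spans 13873708 to 13876528 of chromosome 4 (plus strand). In the annotation, 3 of the 10 genes overlap a gene on the opposite strand. The overlap was 138 nt for PYK10 with AT3G09250, 200 nt for MEB1 with the long noncoding RNA AT4G27852, and 631 nt for JAL34 with the lectin gene JR1. The sources used here do not say whether reads were counted by strand, so those FPKM values may include reads of the partner gene.

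Levels of the 10 genes spread over 2 orders of magnitude in every group, as the plot of FPKM by library shows. FPKM is scaled by transcript length, so these levels can be set side by side. With doxycycline PYK10 led with 1140 ± 103 FPKM (SD, n = 3 in this and the following levels) and ranked 51 among all 33557 loci, and PBP1 came second with 765 ± 69.2 FPKM at rank 108. JAL34 had 176 ± 12.4, JAL33 174 ± 9.71, NAI2 92.2 ± 9.71 and JAL31 44.3 ± 1.36 FPKM. BGLU21 stood below JAL31 with 28.0 ± 2.36 FPKM, at rank 4443 among all loci against 1645 in wild type. BGLU22 had 25.3 ± 2.24 FPKM, at rank 4909 against 2667 in wild type. MEB1 and NAI1 closed the order with 20.4 ± 2.97 and 10.3 ± 1.59 FPKM. Libraries overlapped between JAL34 and JAL33, between BGLU21 and BGLU22 and between BGLU22 and MEB1. In mrpl1-1, on the scale of the same table, PYK10 had 1344 ± 228, PBP1 1100 ± 360, JAL33 245 ± 62.3, JAL34 215 ± 23.3, BGLU21 107 ± 39.1, NAI2 103 ± 3.30, JAL31 58.9 ± 0.83, BGLU22 53.6 ± 9.81, MEB1 21.6 ± 3.01 and NAI1 12.1 ± 4.97 FPKM. Libraries of neighbours overlapped between PYK10 and PBP1, JAL33 and JAL34, BGLU21 and NAI2, and JAL31 and BGLU22.

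In wild type PYK10 had 1284 ± 174 FPKM, at rank 50 among all loci. PBP1 followed with 861 ± 82.6 FPKM at rank 101. JAL33 had 226 ± 0.84, JAL34 185 ± 14.7, NAI2 88.2 ± 10.7, BGLU21 79.2 ± 6.44, BGLU22 48.8 ± 7.02, JAL31 47.9 ± 4.91, MEB1 21.0 ± 2.28 and NAI1 11.2 ± 0.68 FPKM. Neighbours in this order overlapped between libraries for NAI2 and BGLU21 and for BGLU22 and JAL31, and no other neighbours did. In each group PYK10 thus made up most of the transcript of the 3 enzymes, and the transcription factor was the lowest of the 10.

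**Figure D1:**
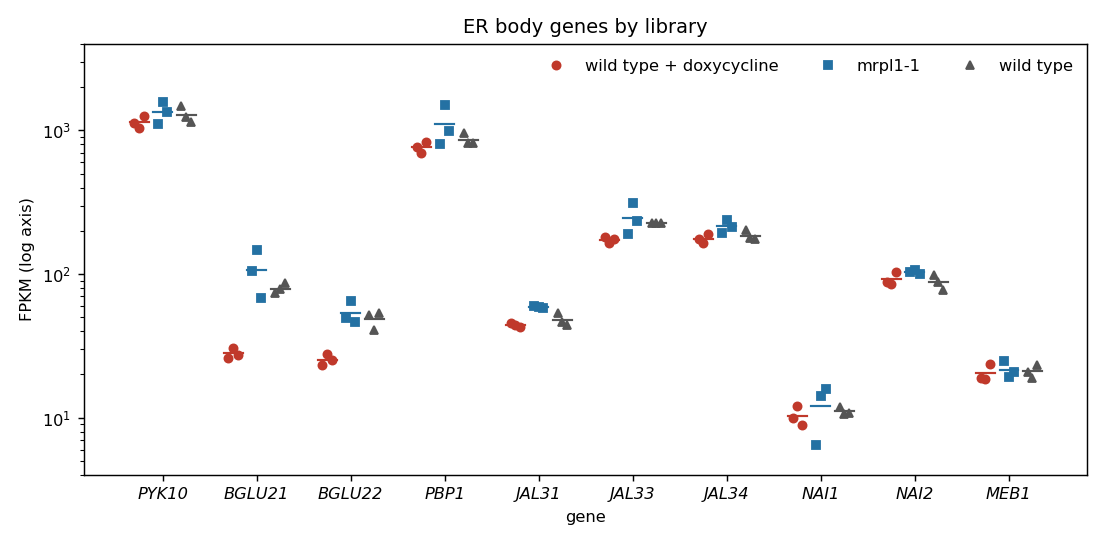
FPKM of the 10 ER body genes on a log axis, with 3 libraries per group as points and the group mean as a bar; mrpl1-1 values are on the scale of the table with doxycycline. BGLU21 and BGLU22 in doxycycline-treated libraries lie below every library of the other groups, and the points of PYK10 overlap between groups.

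With doxycycline the transcript of BGLU21 fell, that of its neighbour BGLU22 was lower in every library without passing the test, and that of PYK10 overlapped wild type. BGLU21, which together with BGLU22 and PYK10 is known to hydrolyse the coumarin glucoside scopolin in roots, had 26.1, 30.6 and 27.4 FPKM in doxycycline-treated seedlings, against 73.4, 78.1 and 86.1 FPKM in wild type. The groups were far apart, and its mean was 0.354 times that of wild type. The log2 difference of FPKM + 1 was -1.47 with an SE of 0.11 and a 95% interval of -1.73 to -1.20, and limma gave an adjusted p of 0.00704, the sixth smallest p of 19073 genes tested. This call was lost without doxycycline replicate 1 (adjusted p = 0.0597), without doxycycline replicate 3 (0.0576) and with the replicate number as a block (0.0552), at log2 differences between -1.53 and -1.35 over all alternatives. BGLU21 was the only one of the 10 genes called, where 0.184% of all tested genes were called and 0.0682% were called lower.

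BGLU22 had 23.1, 27.6 and 25.2 FPKM in doxycycline-treated seedlings, against 52.2, 40.8 and 53.5 FPKM in wild type. Its groups did not overlap either, with a mean of 0.518 times that of wild type. The log2 difference was -0.92 (SE 0.14, 95% interval -1.24 to -0.59), and limma's adjusted p of 0.0754 missed the threshold of 0.05. With weights for library quality it was called, at 0.0303. Since the seedlings were sequenced whole, fewer cells that express these genes and less RNA per cell cannot be told apart, for these and all later values.

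PYK10 had 1122, 1047 and 1251 FPKM in doxycycline-treated seedlings, against 1477, 1236 and 1139 FPKM in wild type. The groups overlapped, and the 95% interval of the log2 difference of -0.17 ran from -0.51 to 0.17 (limma adjusted p = 0.769). That interval does not reach the estimates of BGLU21 or BGLU22, and it does not exclude a modest fall. Within each library, BGLU21 came to 2.32, 2.93 and 2.19% of PYK10's FPKM with doxycycline, against 4.97, 6.31 and 7.56% in wild type. BGLU22 came to 2.06, 2.63 and 2.01% of PYK10 with doxycycline, against 3.54, 3.30 and 4.70% in wild type. Such ratios do not depend on how a library was scaled, and they did not overlap between these groups for either gene. An exact permutation test over 3 against 3 libraries cannot give a two-sided p below 0.10, so none is given. The plot of ratios within libraries shows both enzymes below wild type relative to PYK10. The sum of the 3 enzymes, mostly PYK10, was 1193 ± 101 FPKM with doxycycline and 1412 ± 170 FPKM in wild type.

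**Figure D2:**
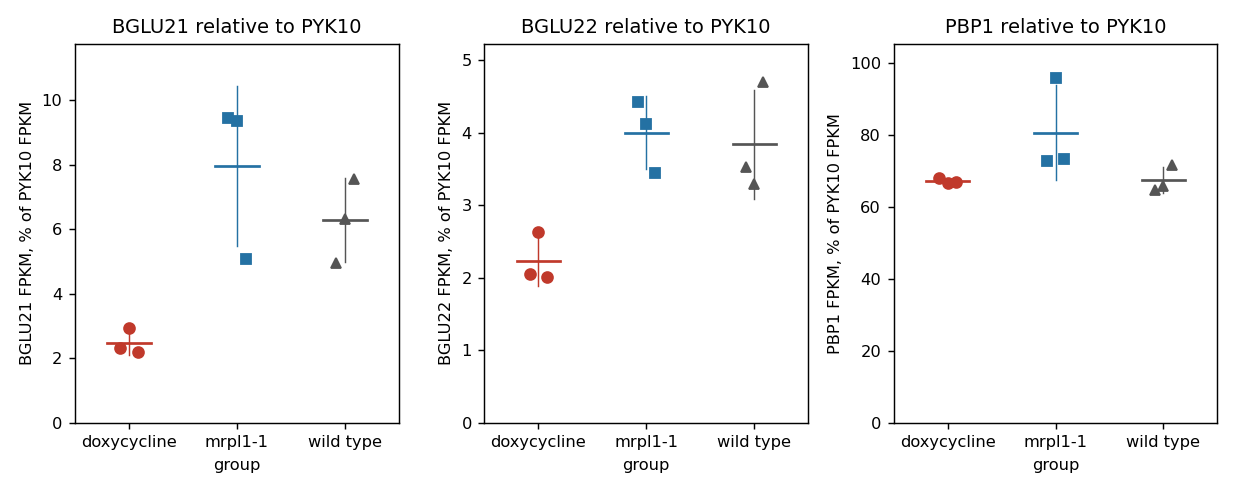
FPKM of BGLU21, BGLU22 and PBP1 as a percentage of that of PYK10 in the same library, with 3 libraries per group as points, the group mean as a bar and the SD as a line, on axes that start at 0. With doxycycline BGLU21 averaged 2.48% of PYK10, against 6.28% in wild type, while PBP1 averaged 67.1% with doxycycline and 67.3% in wild type.

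The lectins, which gather with the enzymes into complexes after damage, had smaller differences, none of them called. JAL33 had 183, 163 and 175 FPKM with doxycycline, against 226, 226 and 227 FPKM in wild type. It was lower in every library, at 0.767 times the wild-type mean, with a log2 difference of -0.38 (95% interval -0.61 to -0.16) that did not pass in limma (adjusted p = 0.316). PBP1, a lectin that binds PYK10, had 761, 697 and 836 FPKM with doxycycline, against 957, 814 and 813 FPKM in wild type, and its groups overlapped. Its ratio to PYK10 was 67.8, 66.6 and 66.8% with doxycycline, against 64.8, 65.9 and 71.4% in wild type. JAL31 had 45.7, 44.3 and 42.9 FPKM with doxycycline and 53.4, 46.3 and 43.9 FPKM in wild type. JAL34 had 176, 164 and 189 FPKM with doxycycline and 202, 178 and 175 FPKM in wild type. The 4 lectins together came to 1159 ± 86.9 FPKM with doxycycline, against 1321 ± 101 FPKM in wild type.

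Transcripts of the factor and the structural proteins overlapped between doxycycline and wild type. NAI1 had 9.93, 12.0 and 8.92 FPKM with doxycycline, against 11.9, 10.7 and 10.8 FPKM in wild type, with a log2 difference of -0.11 (95% interval -0.44 to 0.21). NAI2 had 87.9, 85.4 and 103 FPKM with doxycycline, against 98.9, 88.4 and 77.4 FPKM in wild type, with a log2 difference of 0.06 (-0.24 to 0.37). MEB1 had 18.8, 18.5 and 23.8 FPKM with doxycycline, against 20.8, 18.8 and 23.4 FPKM in wild type, with a log2 difference of -0.04 (-0.37 to 0.29). None of these passed in limma, with adjusted p-values of 0.839 for NAI1, 0.908 for NAI2 and 0.944 for MEB1, and the intervals leave room for changes of modest size. NAI2 stood at 8.08 ± 0.22% of PYK10 with doxycycline and 6.88 ± 0.24% in wild type. Within libraries this ratio was 7.83, 8.15 and 8.26% with doxycycline, against 6.69, 7.15 and 6.80% in wild type. It thus did not overlap, and it was higher with doxycycline, unlike the ratios of BGLU21 and BGLU22. In mrpl1-1 the ratio of NAI2 to PYK10 was 9.25, 6.81 and 7.43%, from within the wild-type range to above the doxycycline range. How often such ratios separate these groups was not tested.

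Over the 10 genes, 9 had a log2 difference below 0 with doxycycline, with a median of -0.14 against 0.00 over all tested genes. With quantile normalization JAL34 moved above 0 (0.027) and 8 remained below. In 3 of them (BGLU21, BGLU22 and JAL33) every treated library lay below every wild-type library, where 7.48% of tested genes did so. The same 3 had an unadjusted p under 0.05, as did 4.65% of tested genes in the lower direction. The plot of differences with their intervals sets the members side by side in the 3 comparisons.

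**Figure D3:**
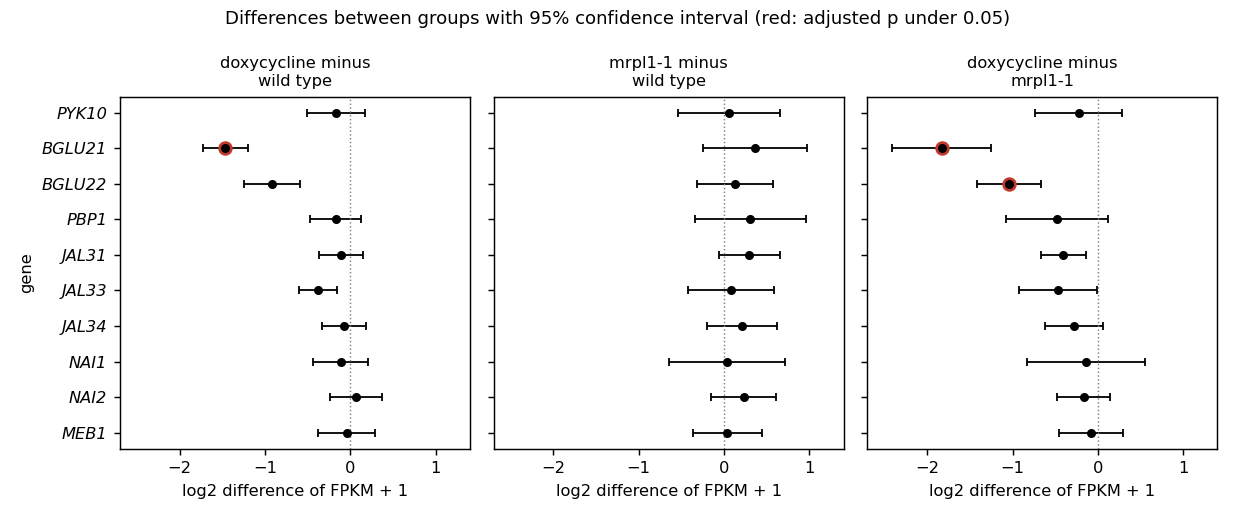
Log2 difference of FPKM + 1 for the 10 ER body genes in 3 comparisons, as points with 95% confidence intervals, and red points for an adjusted p under 0.05. With doxycycline BGLU21 stands at -1.47 and BGLU22 at -0.92 against wild type, and all 10 points of mrpl1-1 against wild type lie above 0 with intervals that cross it.

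In mrpl1-1 none of the 10 genes was called, where limma called 0.0369% of 18994 tested genes. BGLU21 had 99.0, 138 and 64.6 FPKM in mrpl1-1, against 69.0, 73.4 and 81.1 FPKM in wild type in that table. The mutant libraries spread on both sides of wild type, and the log2 difference was 0.36 (SE 0.27, 95% interval -0.24 to 0.97, limma adjusted p = 0.931). BGLU22 had 46.4, 60.9 and 43.8 FPKM in mrpl1-1, against 49.1, 38.4 and 50.4 FPKM in wild type. PYK10 had 1048, 1476 and 1269 FPKM in mrpl1-1, against 1390, 1163 and 1072 FPKM in wild type. The enzymes thus overlapped between mutant and wild type in all 3 cases.

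JAL31 had 55.9, 55.7 and 54.5 FPKM in mrpl1-1, against 50.2, 43.6 and 41.4 FPKM in wild type, and NAI2 had 96.9, 100.5 and 94.3 FPKM in mrpl1-1, against 93.0, 83.1 and 72.9 FPKM in wild type. These 2 genes were higher in every mutant library, where 5.09% of tested genes were, with log2 differences of 0.30 (95% interval -0.06 to 0.65) for JAL31 and 0.23 for NAI2. PBP1 had 761, 1414 and 929 FPKM in mrpl1-1, against 900, 766 and 766 FPKM in wild type, and its high value belongs to replicate 2, the library that led the first principal component. JAL33 had 178, 293 and 220 FPKM in mrpl1-1, against 212, 213 and 214 FPKM in wild type, also with its highest value in replicate 2. JAL34 had 181, 225 and 200.03 FPKM in mrpl1-1, against 190, 168 and 165 FPKM in wild type. NAI1 had 6.09, 13.3 and 14.8 FPKM in mrpl1-1, against 11.2, 10.0 and 10.2 FPKM in wild type, and MEB1 had 23.5, 18.1 and 19.5 FPKM in mrpl1-1, against 19.5, 17.7 and 22.01 FPKM in wild type. All 10 log2 differences were above 0 with a median of 0.17, against -0.00 over all tested genes, and 0 of the 10 had an unadjusted p under 0.05, as did 2.83% of tested genes in the higher direction. With quantile normalization PYK10 (-0.10) and JAL33 (-0.033) stood below 0.

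The mutant libraries varied more among themselves than the others did for most of these genes. Coefficients of variation over the 10 genes had a median of 17.6% in mrpl1-1 and ranged between 1.41 and 41.0%. Their median was 8.95% with doxycycline and 9.92% in wild type. Without mrpl1-1 replicate 2 the differences of PYK10, JAL33, NAI1 and BGLU22 against wild type turned below 0, at -0.06, -0.11, -0.12 and -0.02, so that direction rests on that library for these genes. MEB1 turned below 0 without mrpl1-1 replicate 1 (-0.066) or wild-type replicate 2 (-0.034), NAI1 without mrpl1-1 replicate 3 (-0.19) and PYK10 without wild-type replicate 3 (-0.022).

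Whether doxycycline and the mutation differ was tested directly between those groups. The wild-type libraries stand in both tables with a constant factor of 0.941 between them, and the mrpl1-1 values were divided by it to bring both groups to the same scale. BGLU21 fell by 1.83 on the log2 scale in doxycycline-treated seedlings relative to mrpl1-1 (SE 0.25, 95% interval -2.41 to -1.25, limma adjusted p = 0.0315), with a mean of 0.262 times that of the mutant. BGLU22 fell by 1.04 (SE 0.16, 95% interval -1.41 to -0.67, limma adjusted p = 0.0483), with a mean of 0.472 times. These 2 of the 10 genes were called lower, where 0.278% of 19056 tested genes were. The calls were lost in 7 of 15 alternatives for BGLU21 and in 9 of 15 for BGLU22, among them the omission of any single library other than mrpl1-1 replicate 3, after which neither of the 2 was called. In all of them both genes stayed lower with doxycycline.

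For PYK10 the log2 difference between doxycycline and mrpl1-1 was -0.23 (95% interval -0.74 to 0.29, limma adjusted p = 0.709), and for PBP1 -0.48 (-1.08 to 0.12, 0.533). JAL31, JAL33 and JAL34 were lower in every doxycycline-treated library than in any mutant library, by log2 differences of -0.40, -0.46 and -0.28, with limma adjusted p-values of 0.242, 0.442 and 0.526. With BGLU21 and BGLU22 that made 5 of 10 genes without overlap in the lower direction, where 9.27% of tested genes were. NAI1, NAI2 and MEB1 had log2 differences of -0.14, -0.17 and -0.08. Relative to PYK10 in the same library, BGLU21 came to 2.48 ± 0.39% with doxycycline and 7.96 ± 2.49% in mrpl1-1.

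BGLU21 and BGLU22 also differed relative to each other. BGLU21 was at 112.8, 111 and 108.8% of the FPKM of BGLU22 with doxycycline, at 213, 227 and 147% in mrpl1-1, and at 140.5, 191 and 161% in wild type. Doxycycline-treated libraries thus held the neighbours at nearly equal levels, and no library of the other groups did. Over the 9 libraries, the log2 values of BGLU21 and BGLU22 had a Pearson correlation of 0.97, and 0.72 after each group's mean was removed. The pair BGLU21 and PYK10 had 0.52 over the 9 libraries and 0.11 within groups. PYK10 and PBP1 had 0.89 and 0.90, PYK10 and JAL34 0.88 and 0.99, and PBP1 and JAL33 0.89 and 0.93. These correlations describe 9 libraries that share their groups and their scaling. BGLU21 and BGLU22 thus ran together, and PYK10 ran closer to the lectins PBP1 and JAL34 than to BGLU21. The other 2 lectins did not follow this split. Over the 9 libraries JAL33 had 0.81 with BGLU21, 0.82 with BGLU22 and 0.80 with PYK10, and 0.44, 0.50 and 0.74 within groups. JAL31 had 0.71 with BGLU21 and 0.56 with PYK10, and -0.09 and 0.45 within groups.

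The genes whose pattern was most like that of BGLU21 were ranked by Pearson correlation over the 9 libraries among 13911 genes that averaged 5 FPKM or more. RHS13, a root hair cell wall protein gene, came first at 0.996, and at 0.993 within groups. It was followed by the peroxidase gene AT3G49960 (0.985), the invertase or pectin methylesterase inhibitor gene AT5G04960 (0.981), the acyltransferase gene AT4G15390 (0.981) and the xyloglucan endotransglucosylase gene XTH14 (0.980). RHS13 had 16.8, 20.9 and 18.5 FPKM with doxycycline, 96.3, 157 and 62.0 FPKM in mrpl1-1 on the same scale, and 57.1, 61.4 and 66.1 FPKM in wild type. In each group the library that was highest for RHS13 was also highest for BGLU21, as the plot of those genes against each other shows. BGLU21 came to 155, 147 and 148% of RHS13 with doxycycline, 109, 93.6 and 111% in mrpl1-1, and 129, 127 and 130.4% in wild type. AT5G04960 had 3.88 ± 0.16 FPKM with doxycycline, 19.8 ± 3.84 in mrpl1-1 and 14.4 ± 1.39 in wild type, and XTH14 had 25.8 ± 3.57 with doxycycline, 74.8 ± 27.1 in mrpl1-1 and 58.0 ± 9.34 in wild type.

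**Figure D4:**
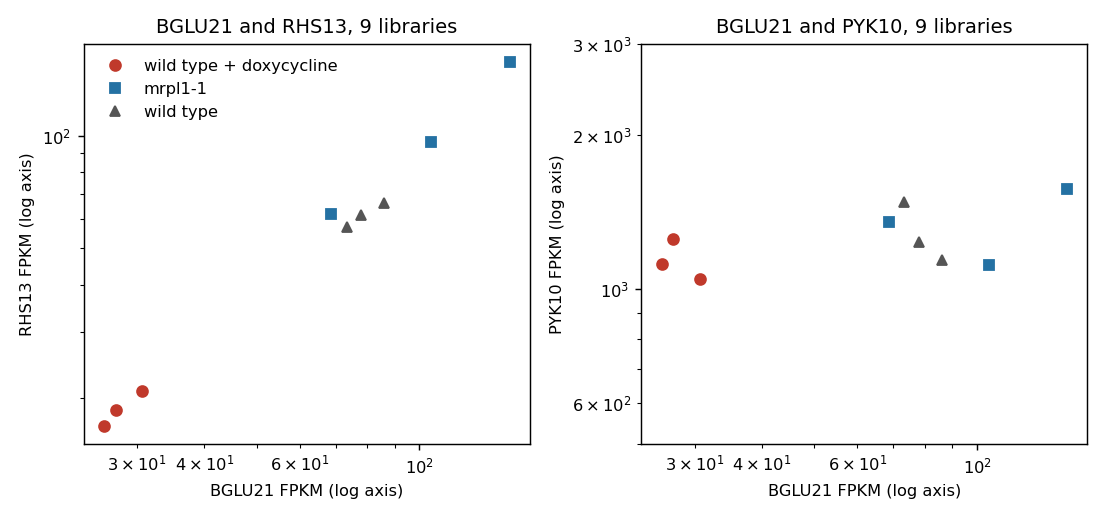
FPKM of BGLU21 (horizontal) against RHS13 (left panel, vertical) and against PYK10 (right panel, vertical) in 9 libraries on log axes, coloured by group. RHS13 runs with BGLU21 in every group, with a correlation of 0.996 over the libraries, and PYK10 overlaps between groups while BGLU21 does not overlap between doxycycline and the others.

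Other genes of the set had other genes at the top of this ranking. The highest of 13911 correlations over 9 libraries can be large for unrelated genes. These names are therefore a description, and a link to the members was not tested. The closest to PYK10 were AT4G26130, the knottin-like AT2G43550, the glucosinolate sulfotransferase gene SOT18, AT1G15060 and AT3G20390, with correlations between 0.912 and 0.932. PBP1 ran closest to ADF4, which encodes an actin depolymerizing factor, AT1G33590, AL2, the thiazole synthesis gene THI1 and the carbonic anhydrase gene CA2, between 0.946 and 0.959. NAI2 ran closest to CRL, AT1G33420, AT3G17250, ILL2 and AT5G42850, between 0.917 and 0.951. No gene was shared among these 4 lists of 5. Lists this short out of 13911 genes seldom share a gene, so this is not read as a difference between the members.

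Some root marker genes, most of them genes of root hairs, were lower with doxycycline as BGLU21 and BGLU22 were. The list held 21 genes of root hairs, endodermis and root transport. Their summed level was 149.7 to 155.8 FPKM with doxycycline, 271 to 449 FPKM in mrpl1-1 and 259 to 298 FPKM in wild type. With doxycycline against wild type, 1 of the 18 tested was called lower (RHS13, adjusted p = 0.00582 in limma) and 8 did not overlap in the lower direction, with a median log2 difference of -0.51. Over all tested genes 0.0682% were called lower and 7.48% did not overlap in that direction. In doxycycline against mrpl1-1, 5 of 19 tested were called lower, where 0.278% of all tested genes were, led by PRP3 (-1.99), RHS13 (-2.33) and LRX1 (-1.49), and the median was -0.61. Among endodermal genes of the list, MYB36 was higher in every doxycycline-treated library (4.96 ± 1.44 FPKM with doxycycline and 3.08 ± 0.81 in wild type, log2 difference 0.54, limma adjusted p = 0.602), the 1 gene without overlap in that direction, where 8.51% of tested genes were. CASP1 and SCR, named like MYB36 after their values were seen, overlapped, with CASP1 at 21.5 ± 5.25 FPKM with doxycycline and 25.9 ± 3.43 in wild type, and SCR at 13.2 ± 0.54 with doxycycline and 11.5 ± 2.32 in wild type. CASP5 was listed at 0 in 5 of the 9 libraries and MYB66 in 1. In mrpl1-1 against wild type limma called 0 of 19, and the median was 0.18. At an unadjusted p under 0.05, 3 of them were higher, where 2.83% of tested genes were. Another 1 was lower, and without a share over all tested genes it is not read as a result. The part of root tissue in the values of BGLU21 and BGLU22 was not tested. The 10 shoot markers summed to 27118 to 31140 FPKM with doxycycline, 27094 to 51682 FPKM in mrpl1-1 and 28385 to 29907 FPKM in wild type. Limma called 0 of them in any comparison. In doxycycline against mrpl1-1, 1 had an unadjusted p under 0.05. No share over all tested genes is given for it, so it is not read as a result.

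Of 15 other ER body and PYK10-complex genes, 12 had enough signal to be tested and limma called 0 in any comparison. At an unadjusted p under 0.05, 2 were lower with doxycycline than in wild type, where 4.65% of tested genes were. In mrpl1-1 against wild type 1 was higher, where 2.83% of tested genes were, and 1 was lower. With doxycycline against mrpl1-1 3 were lower. No share over all tested genes is given for the lower direction in those last comparisons, so these counts are not read as a result. With doxycycline against wild type 11 of the 12 lay below 0, with a median of -0.20 against 0.00 over all tested genes. GLL22, a GDSL lipase-like protein found with the PYK10 complex, had 56.2 ± 3.27 FPKM with doxycycline, 143 ± 47.6 in mrpl1-1 and 84.5 ± 4.73 in wild type. It did not overlap between doxycycline and wild type (log2 difference -0.58, limma adjusted p = 0.114), nor between mrpl1-1 and wild type (0.70, 0.931), and the difference between doxycycline and mrpl1-1 was -1.28 (0.0823). Its relative AT1G54010 was lower in every doxycycline-treated library than in wild type (-0.62, limma adjusted p = 0.485). BGLU18, the beta-glucosidase of leaf ER bodies, and its neighbour TSA1, a relative of NAI2 with 74.3% identical coding bases, had log2 differences of -0.40 and -0.35 with doxycycline and of -0.45 and -0.46 in mrpl1-1, none of them called. MEB2, the partner of MEB1 in the ER body membrane, had 0.19 with doxycycline and 0.31 in mrpl1-1, where every mutant library was above every wild-type library (6.32 ± 0.64 FPKM in mrpl1-1 and 4.92 ± 0.60 in wild type). AT4G27870, a gene of the same family, had -0.09 with doxycycline and -0.07 in mrpl1-1.

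The lectins JAL22, JAL23, MLP-300B and JR1 had log2 differences of -0.30, -0.18, -0.23 and -0.02 with doxycycline. In mrpl1-1 they had 0.07, -0.62, 0.28 and -0.23, and JAL23 was lower in every mutant library than in wild type. The lipase-like MVP1 had -0.06 with doxycycline and 0.17 in mrpl1-1, and BGLU25 -0.03 and -0.04. The remaining 3 beta-glucosidase relatives were not tested for their low level, of which BGLU19 and ATA27 were each listed at 0 in 8 of 9 libraries and BGLU24 in 3. The plot of every listed gene by group of genes shows BGLU21 (-1.47) and BGLU22 (-0.92) below the range of these other ER body genes, whose lowest value was -0.62.

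**Figure D5:**
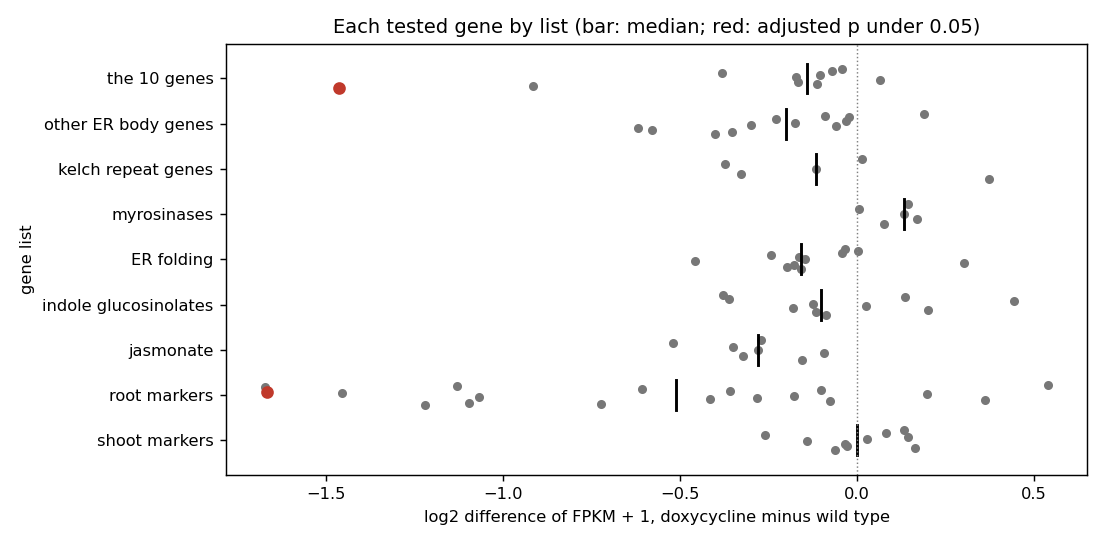
Log2 difference of FPKM + 1, doxycycline minus wild type, of each tested gene in 9 lists, with the median of each list as a black bar and red points for an adjusted p under 0.05. The 10 genes have a median of -0.14 and root markers one of -0.51, and the red points are BGLU21 and RHS13.

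Genes of 5 related pathways gave 0 calls in limma in all 3 comparisons. At an unadjusted p under 0.05, 2 of 10 indole glucosinolate genes were lower with doxycycline than in wild type, where 4.65% of tested genes were. In that comparison 1 ER folding gene was higher. In mrpl1-1 against wild type 1 indole glucosinolate and 1 jasmonate gene were lower. With doxycycline against mrpl1-1 1 kelch repeat gene and 1 jasmonate gene were higher. No share over all tested genes is given for these other counts, so they are not read as a result about the lists. Kelch repeat genes, made up of nitrile specifiers and AT3G07720 and including NSP4 (-0.37, limma adjusted p = 0.656), had a median log2 difference of -0.12 over 5 genes with doxycycline, and NSP3 had 0.24 in mrpl1-1. The 5 other myrosinases had a median of 0.13 with doxycycline, with PEN2 at 0.13, and TGG2 had -0.26 in mrpl1-1. Of 12 ER folding and retention genes 11 were tested, with a median of -0.16 with doxycycline, and BZIP60, which encodes a transcription factor of the unfolded protein response, had 0.30 with doxycycline and 0.27 in mrpl1-1. Indole glucosinolate synthesis, which makes substrates of PYK10, had a median of -0.10 over 10 genes with doxycycline, with CYP79B2 at -0.36, and MYB34 had -0.80 in mrpl1-1. The 7 genes of the response to jasmonate, a hormone known to induce ER bodies in leaves, had a median of -0.28 with doxycycline and -0.25 in mrpl1-1, with AOS at -0.27 and LOX2 at -0.65. The shoot marker with the smallest p was LHCA1, at -0.26 with doxycycline and 0.51 in mrpl1-1. Between doxycycline and mrpl1-1 the genes with the smallest p in these lists were AT3G07720 (0.41), TGG1 (0.31), ERD2B (-0.30), MYB34 (0.42), LOX2 (0.56) and LHCA1 (-0.77). The root list's smallest p in mrpl1-1 against wild type was that of TIP2;3 (-1.05). None of the 3 basic helix-loop-helix relatives of NAI1 had enough signal to be tested, and they were listed at 0 in 5 to 7 of the 9 libraries.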

How the data were processed

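Polyadenylated RNA of 9 seedling libraries was sequenced on an Ion Torrent Proton, per the labels' protocols. The authors deposited FPKM values per locus in 2 tables, each holding the same wild-type libraries. FastQC 0.10.1, Cufflinks 2.2.1 and TAIR10 are named in the submitters' processing notes, and the aligner and strand setting are not given in the sources used here. The tables hold no counts, so no count test was run. Depth was estimated from the spacing of low FPKM values, and it limits NAI1 most.

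Members and gene lists were chosen with earlier results of these data known. Genes averaging 1 FPKM or more were compared on the log2(FPKM + 1) scale with limma 3.58.1 (R 4.3.3), with a trended prior variance and Benjamini-Hochberg adjustment over all tested genes, and genes under an adjusted p of 0.05 are called. The fit was also run on simulated data with independent noise for each gene. That noise holds no library that stands apart, so the run does not bear on how calls shift between libraries. Folds on this scale understate changes of low genes. Doxycycline and wild type, and mrpl1-1 and wild type, were fitted within a table. Doxycycline and mrpl1-1 were fitted after division by the factor between the tables. Replicate numbers were not taken as pairs, since the labels do not say that a number marks a shared batch. Named genes are the 10 loci, the other ER body genes, up to 3 called genes or else the smallest p of each other list, and the 5 genes most correlated with PYK10, BGLU21, PBP1 and NAI2. Of 33557 loci, 32810 matched RefSeq's TAIR10.1 annotation by locus tag and 747 did not. Promoters and coding sequences were read from TAIR10.1, and no coordinates of the tables were used. The alternatives tried were a pseudocount of 0.1 or 5, all genes kept, a minimum of 5 FPKM, median-ratio rescaling of the libraries and quantile normalization. Others were no trend, library weights, a replicate block and the omission of each library. Omission of both libraries that stood apart was added after the data were seen.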

Additional observations from a re-analysis of the deposited data

Results flagged for a closer look

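Results that differed between doxycycline and the mutation, by the direct test between those groups, were BGLU21 with a log2 difference of -1.83 and BGLU22 with -1.04 (doxycycline minus mrpl1-1, limma adjusted p = 0.0315 and 0.0483). Every doxycycline-treated library lay below every mutant library for both genes. The root hair genes RHS13 (-2.33), PRP3 (-1.99) and LRX1 (-1.49) met the same condition (limma adjusted p = 0.0290, 0.0162 and 0.0305). They had the smallest p of 5 root markers called lower in this test, and the rest of those 5 are not named. RHS13 had 18.7 ± 2.05 FPKM with doxycycline and 105 ± 48.1 FPKM in mrpl1-1.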

How the results depend on the processing

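BGLU21 and BGLU22 were lower with doxycycline than in wild type and than in mrpl1-1 under every alternative run. Of 10 genes, 1 was called in doxycycline against wild type, 2 with library weights, 0 with the replicate block and 0 to 1 without single libraries. In doxycycline against mrpl1-1 2 were called, 1 with a pseudocount of 5, 0 without the filter, 0 without the trend, 1 with the block and 0 to 2 without single libraries. In mrpl1-1 against wild type 0 were called throughout. Adjusted p-values of BGLU21 against wild type lay between 0.00136 and 0.0597. Over all genes, 35 were called in doxycycline against wild type, 20 without the filter, 21 without the trend, 126 with weights, 7 with the block and 9 to 91 without single libraries, the highest without wild-type replicate 3. In mrpl1-1 against wild type 7 were called, 4 with a pseudocount of 5, 4 without the filter, 2 with a filter of 5 FPKM, 18 with weights and 5 to 11 without single libraries. In doxycycline against mrpl1-1 76 were called, 18 without the filter, 29 without the trend, 160 with weights and 13 to 237 without single libraries, the highest without mrpl1-1 replicate 3. The cause of these shifts was not tested. Same-numbered libraries correlated at -0.03 to 0.08 for doxycycline and wild type, at -0.00 to 0.06 for doxycycline and mrpl1-1 and at -0.08 to 0.03 for mrpl1-1 and wild type, so the numbers were not taken as pairs. The libraries that correlated best with their own number were 2 of 3 in the first case and 1 of 3 in the others. So few libraries cannot exclude that a number marks a shared batch.

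Signs turned for genes near 0 that were not called. In doxycycline against wild type these were JAL34 with quantile normalization (0.027), NAI2 with weights (-0.031) and without single libraries (-0.025 to 0.15), and MEB1 without single libraries (-0.16 to 0.033). In mrpl1-1 against wild type, quantile normalization gave -0.10 for PYK10 and -0.033 for JAL33, and weights gave -0.11 for PYK10, -0.057 for JAL33 and -0.17 for NAI1. Without both libraries that stood apart PYK10 had -0.14, JAL33 -0.11 and NAI1 -0.13, an alternative chosen after the data were seen. Without single libraries the ranges were -0.058 to 0.19 for PYK10, -0.11 to 0.25 for JAL33, -0.19 to 0.39 for NAI1, -0.066 to 0.12 for MEB1 and -0.017 to 0.22 for BGLU22. In doxycycline against mrpl1-1 they were PYK10 with quantile normalization (0.071), NAI1 with weights (0.075) and without single libraries (-0.51 to 0.075), and MEB1 without single libraries (-0.19 to 0.022).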
